A study of Bos taurus with 36 samples.

Results

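The nuclear genes for the subunits of respiratory complexes II to V were followed in the heart, gonads and liver of bovine fetuses and in the blood of the heifers carrying them. All genes of the count table were taken whose bovine RefSeq symbol is that of a protein-coding SDHA to SDHD, UQCR, CYC1, COX4 to COX8 or ATP5 gene, leaving out the ATP synthase inhibitor ATP5IF1. This gave 48 of 35092 genes, of which 4 belong to complex II, 9 to complex III, 18 to complex IV and 17 to complex V.

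Complex II (succinate dehydrogenase) passes electrons from succinate to ubiquinone, complex III (the cytochrome bc1 complex) passes them on to cytochrome c, and complex IV (cytochrome c oxidase) reduces oxygen. The proton gradient that complexes III and IV help to build drives complex V, the ATP synthase. Complexes III, IV and V join subunits encoded by nuclear genes with a few encoded by mitochondrial DNA, complex II is wholly nuclear, and several complex IV subunits exist as a form found in most tissues and a form known from striated muscle (COX6A2, COX7A1, COX8B) or lung (COX4I2).

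RNA was sequenced from 10 male fetuses on Day 42 of gestation and from their dams, in 9 heart, 9 gonad, 8 liver and 10 maternal blood libraries. The fetuses weighed 1.253 to 1.69 g and are numbered here from the lightest (1) to the heaviest (10). Fetuses 1 to 5, of at most 1.37 g, came from a Day 7 embryo placed in the uterus on Day 7 of the recipient's cycle (ET_D7), and fetuses 6 to 10, of at least 1.396 g, from a Day 7 embryo placed on Day 9 (ET_D9), so that weight and transfer group cannot be told apart across the whole range. Heart is missing for fetus 7, gonads for fetus 2 and liver for fetuses 6 and 7, and each sample was 1 organ of 1 fetus or the blood of 1 dam.

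Total counts ranged from 18231089 to 40812354 per library. The mitochondrial genome's share of a library was 17.1% to 57.3% for heart, 16.3% to 36.8% for liver, 3.31% to 7.23% for gonads and 2.14% to 3.29% for blood. In 2 pairs of libraries the counts differed by less than sampling noise: gonads of fetuses 6 and 8, and livers of fetuses 1 and 2. Each pair may be a single library deposited under 2 names. They were kept separate in the main fits, so that n for gonads and liver would be 1 too high if each pair is a single library, and each result was repeated with a pair counted as 1 sample or left out. All 10 cardiomyocyte markers were detected in the heart, all 10 hepatocyte markers in the liver and in blood all 9 leukocyte markers that the table holds, of 10 listed (at least 10 counts in at least 4 libraries). In the libraries labelled gonads, 7 of 9 Sertoli cell, 5 of 7 Leydig cell and 3 of 8 germ cell markers were detected, beside 11 of 11 markers of the mesonephros and kidney. The Sertoli markers summed to 103 to 179 CPM (counts relative to the scaled library size) there and to 226 to 392 CPM in the heart. The part of each gene in these sums was not examined, so the higher sum in the heart does not measure Sertoli cells. The mesonephros and kidney markers summed to 391 to 485 CPM in the gonads, 25.2 to 70.2 CPM in the heart and 90.3 to 142 CPM in the liver. The Leydig markers summed to 7.50 to 15.6 CPM in the gonads and 67.8 to 160 CPM in the liver. The germ cell markers summed to 21.9 to 36.7 CPM in the gonads, above the 8.02 to 14.7 CPM of the heart. None of these testis markers was at 0 in every gonad library. Markers of a testis were thus partly under the detection limit or low, and the libraries are called gonads only because they are labelled so.

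As a share of all counts outside the mitochondrial genome, the 48 genes made up 1.13% to 1.38% of heart libraries (median 1.22%), 0.468% to 0.878% of liver libraries (median 0.672%), 0.370% to 0.495% of gonad libraries (median 0.443%) and 0.224% to 0.294% of blood libraries (median 0.280%). No heart library overlapped with any liver or gonad library. The share of the 48 genes' counts that fell on each complex also differed. Complex V took 42.5% to 44.5% in the heart and 50.3% to 55.9% in the liver, whereas complex IV, without overlap between the organs, took up to 33.9% in the heart and 24.3% to 28.7% in the liver. Complex III took 17.7% to 19.0% in the heart, 15.2% to 17.0% in the gonads and 13.5% to 15.5% in the liver. Complex II took 10.7% to 14.9% in blood and at most 7.88% in any organ library. Blood was prepared with another library kit, so kit and tissue cannot be told apart in any comparison with blood. In bulk tissue, fewer cells of a type and less RNA per cell cannot be told apart either.

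The first comparison was between the 3 organs. In the heart, most subunits of complexes III, IV and V exceeded their levels in liver and gonads alike, as did SDHB and SDHD of complex II but not SDHA and SDHC. With edgeR's quasi-likelihood test on the 26 organ libraries, 39 of 47 members tested were higher in the heart than in the liver at a Benjamini-Hochberg adjusted p under 0.05, where 27.9% of all 25095 genes tested were, and 3 were higher in the liver, where 30.7% of all genes were. Against the gonads, 44 of 47 were higher in the heart (23.5% of all genes) and 0 were higher in the gonads (23.1% of all genes), also 0 at an unadjusted p under 0.05 and 0 with DESeq2. The heart exceeded both other organs in 38 members, against 11.1% of all genes. No member had its highest level, by both tests, in the gonads, as 14.9% of all genes had, and 3 members (UQCRQ, COX4I2 and ATP5F1E) had theirs in the liver, as 23.1% of all genes had. For COX4I2 the call came from the livers of fetuses 1 to 5, with 232 to 448 counts. The livers of fetuses 8 to 10 held 0 or 1, below every heart (27 to 113). With the fetus as a block, 2 members were higher in the liver than in the heart. The median log2 fold change of the members was 1.39 for heart against liver and 1.93 for heart against gonads, beside 0 and −0.08 over all genes tested. Counting each pair of like libraries as 1 sample left 38 members higher in the heart than in both organs.

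Between gonads and liver the split depended on the scaling of the libraries. With TMM, which sets the scale so that most genes do not differ, 9 members were higher in the gonads (30.8% of all genes) and 28 in the liver (33.6% of all genes), with a median log2 fold change of −0.66. With the total count alone as the scale, 21 were higher in the gonads and 11 in the liver, and the median of the members became 0.23 as that of all genes moved from 0 to 0.91. With the total count outside the mitochondrial genome the split was 16 and 20, with a member median of −0.01 and an all-gene median of 0.58. The members thus lay below the median of all genes in gonads against liver under each scaling. The same choice moved heart against gonads to 29 and 2 members with the total count, with medians of 0.90 over the members and −1.07 over all genes, and left heart against liver at 39 and 3.

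**Figure D1:**
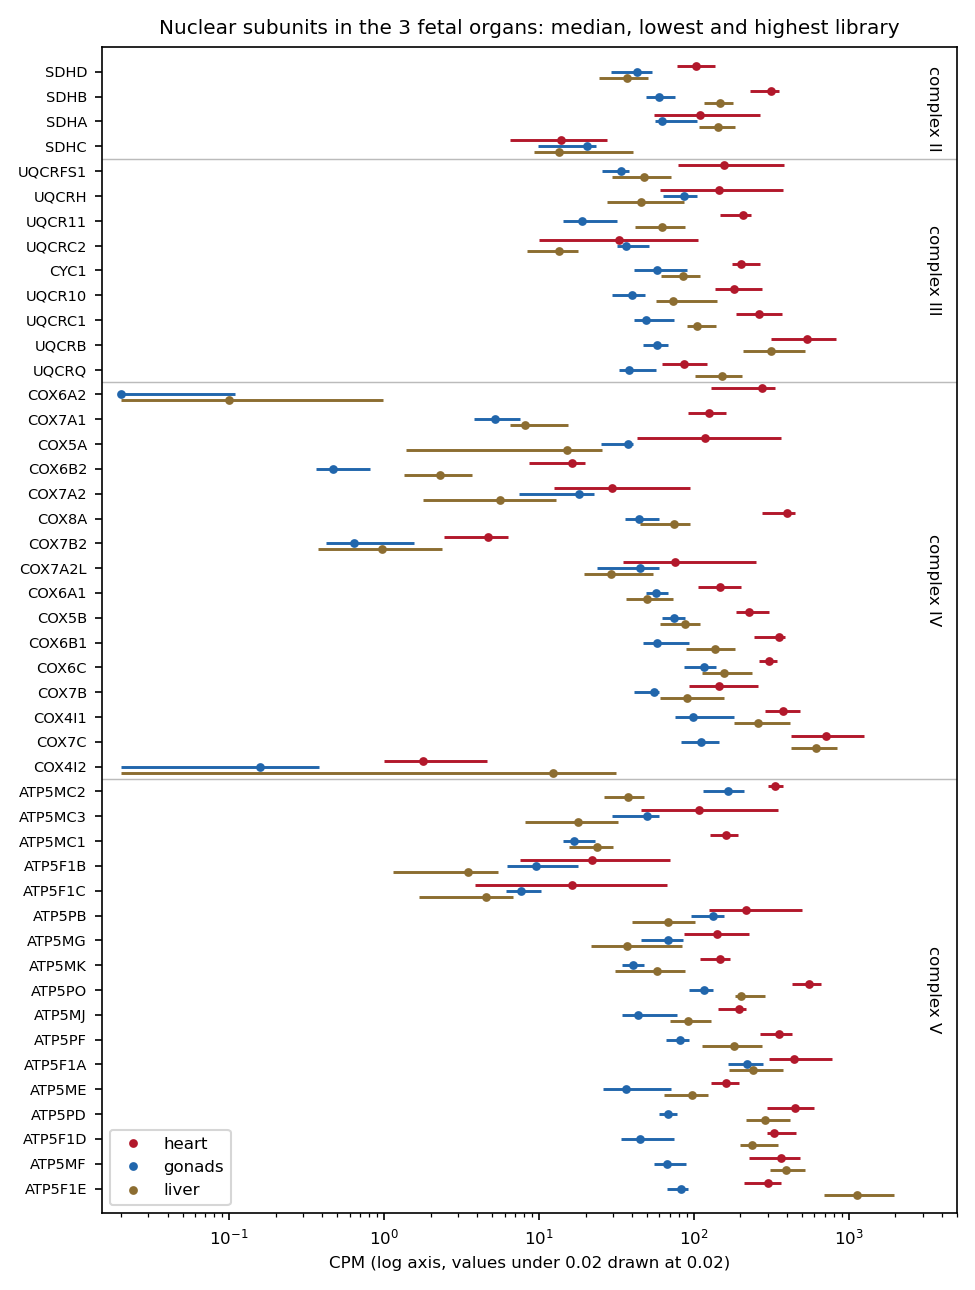
Level of each nuclear subunit with counts in the organs (COX8B and COX8C are not drawn) in CPM on a log axis, grouped by complex and ordered by log2 fold change heart against liver. Points are medians and bars run from the lowest to the highest library of heart, gonads and liver, and levels should be compared within a row only. In most rows the heart bar lies to the right, and UQCRQ, COX4I2 and ATP5F1E are the rows in which the liver was called higher than the heart. For COX4I2 this rests on the livers of fetuses 1 to 5, since those of fetuses 8 to 10 held 0 or 1 counts.

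In complex II, 2 of 4 subunits exceeded both other organs in the heart. SDHD (Entrez 281481), one of the membrane anchors, lay at 78.3 to 138 CPM in the heart (median 104), 29.2 to 54.1 CPM in the gonads (median 43.1) and 24.6 to 50.8 CPM in the liver (median 37.0). No heart library overlapped with another organ. Its log2 fold change against the liver was 1.55 (SE, standard error of the fit, 0.151, adjusted p = 7.04e-10, edgeR). SDHB, the iron-sulfur subunit, was the other member of the complex above both organs, with a log2 fold change of 1.06 against the liver and 2.31 against the gonads. SDHC (Entrez 327696), the other anchor, lay at 6.55 to 27.6 CPM in the heart (median 13.8), 9.91 to 23.4 CPM in the gonads (median 20.5) and 9.24 to 40.5 CPM in the liver (median 13.5). Its ranges overlapped in all organs, and its difference between heart and liver was −0.18 on the log2 scale (SE 0.274, adjusted p = 0.598, edgeR). SDHA, the flavoprotein, was higher in the heart than in the gonads by 0.92, and its difference from the liver was −0.15 (adjusted p = 0.564, edgeR).

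In complex III, 7 of 9 subunits exceeded both other organs in the heart. UQCRFS1 (Entrez 287020), the Rieske iron-sulfur protein that takes electrons from ubiquinol, reached 79.5 to 381 CPM in the heart (median 156), 25.6 to 38.3 CPM in the gonads (median 34.1) and 29.6 to 71.4 CPM in the liver (median 47.7). The heart did not overlap with the others, and the log2 fold change against the liver was 1.94 (SE 0.240, adjusted p = 6.45e-08, edgeR). UQCRQ (Entrez 286885), a small subunit near cytochrome b, went the other way between heart and liver, with 62.7 to 122 CPM in the heart (median 86.4), 32.8 to 56.7 CPM in the gonads (median 37.9) and 102 to 204 CPM in the liver (median 151). It was lower in the heart than in the liver by a log2 fold change of −0.76 (SE 0.144, adjusted p = 4.92e-05, edgeR). The core subunit UQCRC2 was spread widely among hearts, from 10.0 to 106 CPM (median 32.7), around the gonads at 32.0 to 51.5 CPM (median 36.7), with a log2 fold change heart against gonads of −0.07 (SE 0.288, adjusted p = 0.883, edgeR). Its partner core subunit UQCRC1 was higher in the heart than in the gonads by 2.43.

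In complex IV, 14 of 17 subunits tested exceeded both other organs in the heart. The striated muscle isoform COX6A2 (Entrez 282200) had the largest difference of the 47 members, with 129 to 336 CPM in the heart (median 275), 0 to 0.988 CPM in the liver and 0 to 0.108 CPM in the gonads (median 0). The 9 gonad libraries held 14 counts in all and 5 of them held none, and 4 of the 8 liver libraries held none. The log2 fold change against the liver was 9.76 (SE 0.553, adjusted p = 6.05e-15, edgeR). COX7A1, the muscle form of subunit 7A, was higher in the heart by 3.78 against the liver and 4.61 against the gonads. COX6B2 and COX7B2 were also higher in the heart than in the libraries labelled gonads, by 4.91 and 2.48. COX6B2 lay at 8.62 to 19.9 CPM in the heart (median 16.4) and 0.361 to 0.808 CPM in the gonads (median 0.468). COX7C, a small structural subunit, was the complex IV member with the closest levels in heart and liver apart from COX8C, at 425 to 1256 CPM (median 709) and 425 to 839 CPM (median 616), and the difference of 0.29 did not pass (SE 0.196, adjusted p = 0.211, edgeR). COX4I2 had the smallest log2 fold change of the complex, at −2.52 for heart against liver (SE 0.814, adjusted p = 0.00976, edgeR). It held 27 to 113 counts in the hearts, 0 to 17 in the gonads and 0 to 448 in the livers. COX8C never exceeded 6 counts in a library, and COX8B held 0 counts in all 36 libraries. Absence of COX8B RNA and reads not counted for this gene cannot be told apart here.

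In complex V, 15 of 17 subunits exceeded both other organs in the heart. ATP5MC1, ATP5MC2 and ATP5MC3 encode the same mature c subunit of the rotor ring, and all 3 were highest in the heart, but their order in gonads and liver differed. ATP5MC2 (Entrez 337887) lay at 301 to 375 CPM in the heart (median 334), 115 to 210 CPM in the gonads (median 167) and 26.5 to 47.4 CPM in the liver (median 37.6), with a log2 fold change heart against liver of 3.19 (SE 0.140, adjusted p = 2.09e-17, edgeR). It was higher in the gonads than in the liver by 2.09. ATP5MC1 was lower in the gonads than in the liver by −0.43 (adjusted p = 0.00553, edgeR), and ATP5MC3 was higher in the gonads by 1.41. ATP5F1E (Entrez 617230), the epsilon subunit of the rotor stalk, was higher in the liver, with 690 to 1963 CPM in the liver (median 1126), 211 to 367 CPM in the heart (median 299) and 66.9 to 91.5 CPM in the gonads (median 83.0). No liver library overlapped with another organ, and the log2 fold change heart against liver was −1.98 (SE 0.153, adjusted p = 5.13e-12, edgeR). Its part of the 48 genes' counts reached 22.4% in liver libraries, with a median of 19.2%, and at most 3.61% in heart and 3.62% in gonad libraries. The 10 erythroid markers summed to 4017 to 6552 CPM in the liver and 184 to 256 CPM in the heart, and both their sum and ATP5F1E were highest in the liver of fetus 10. In blood, the 4 libraries with 254 to 442 CPM of ATP5F1E had erythroid sums of 3266 to 9770 CPM, and the other 6, with 117 to 178 CPM, had 255 to 1173 CPM. The part of erythroid cells in the ATP5F1E level was not tested. ATP5MF, a membrane subunit, did not pass between heart and liver, at −0.14 (adjusted p = 0.401, edgeR).

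The genes around the complexes were counted as lists. Of 44 assembly factors, which build the complexes without staying in them, 18 were higher in the heart than in the liver and 9 lower (27.9% and 30.7% of all genes), and 23 were higher than in the gonads and 5 lower (23.5% and 23.1%). Their median log2 fold changes were 0.24 and 0.45. LYRM7, which helps insert the Rieske protein, was among those higher in the heart, by 2.31 against the liver (adjusted p = 2.32e-12, edgeR). The largest fitted difference was that of PET117, which was at a median of 0 CPM in both organs and reached 1.02 CPM in the liver, so no fold is given. Of 15 regulators of mitochondrial biogenesis, 6 were higher and 4 lower in heart against liver, beside the same 27.9% and 30.7% of all genes. In heart against gonads 4 were higher and 8 lower, beside the same 23.5% and 23.1%. ESRRG, an orphan nuclear receptor, differed most, by 3.24 (adjusted p = 2.08e-12, edgeR), and in heart against gonads it was the coactivator PPARGC1A, at a median of 265 CPM in the heart and 6.31 CPM in the gonads, with a log2 fold change of 5.26 (adjusted p = 2.30e-21, edgeR). The 17 neighbours tested carry electrons, phosphate or adenine nucleotides, bind to the complexes or take part in making ubiquinone. Of them 13 were higher in the heart than in the liver and 1 lower (27.9% and 30.7% of all genes). Against the gonads 15 were higher (23.5% of all genes). Their median log2 fold changes were 1.10 and 1.69. SLC25A4, the adenine nucleotide carrier of heart and muscle, differed most, by 3.69 (adjusted p = 1.27e-18, edgeR). The 6 subunits of complexes III to V encoded by mitochondrial DNA were all higher in the heart than in the gonads, and 1 of 6, COX2, was higher in the heart than in the liver, by 1.16 (adjusted p = 0.00616, edgeR).

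The balance of isoforms was compared as the ratio of 2 counts within a library, which does not depend on the scaling between libraries. The share is in counts and not per length, so it orders tissues but not isoforms. For subunit 6A, COX6A2 held 44.0% to 72.1% of the counts of COX6A2 and COX6A1 in the heart (median 65.4%), 0% to 0.160% in the gonads, 0% to 2.29% in the liver (median 0.214%) and 0.573% to 10.1% in blood (median 2.41%). The heart did not overlap with any other tissue. The mean log2 ratio was higher in the heart than in the liver by 9.50 (adjusted p = 0.00015, exact permutation test, two-sided) and than in the gonads by 12.0 (adjusted p = 0.000118, exact permutation test). The highest blood share, 10.1%, was in the dam of fetus 2, and the highest liver share, 2.29%, in fetus 4. The cardiomyocyte markers summed to 3787 CPM in that blood library and to at most 1327 CPM in the other blood libraries (median of all 1.75 CPM), and to 683 CPM in the liver of fetus 4, where the livers ranged from 11.6 to 2029 CPM. Skeletal muscle markers were high in the same libraries, with 1396 CPM in the blood of the dam of fetus 2, 610 CPM in that of fetus 5 and at most 23.7 CPM in the other dams, and 376 CPM in the liver of fetus 4, where the livers ranged from 27.5 to 442 CPM. In other libraries COX6A2 and the markers did not go together. Blood of the dams of fetuses 3, 6 and 10 held 49, 42 and 47 COX6A2 counts, with cardiomyocyte sums of 21.6, 1.84 and 0.557 CPM. That of fetus 5, with the 1327 CPM, held 50. The liver of fetus 8 had a COX6A2 share of 2.04% with 125 CPM, and that of fetus 3 had 1.23% with 2029 CPM. The part of either muscle type in the COX6A2 counts was not tested.

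For subunit 7A, COX7A1 held 57.9% to 89.6% of the counts of COX7A1 and COX7A2 in the heart (median 81.1%), 48.9% to 80.3% in the liver (median 56.7%), 18.7% to 41.1% in the gonads (median 22.1%) and 8.06% to 37.1% in blood (median 15.6%). Heart and liver overlapped, while the gonads lay below every heart and every liver library. The mean log2 ratio was higher in the heart than in the liver by 1.25 (adjusted p = 0.00729, exact permutation test) and lower in the gonads than in the liver by a difference of −2.22 (adjusted p = 0.00015, exact permutation test). COX7A2, the form found in most tissues, lay at 1.77 to 12.8 CPM in the liver, 7.43 to 22.8 CPM in the gonads and 12.5 to 94.3 CPM in the heart, so that its ranges overlapped between neighbouring organs in this order.

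For subunit 4, COX4I2 held 2.91% to 11.8% of the counts of COX4I2 and COX4I1 in the livers of fetuses 1 to 5, and at most 0.0184% in the livers of fetuses 8 to 10. In the heart the share was 0.257% to 1.22% (median 0.471%) and in the gonads 0% to 0.496% (median 0.133%). The 10 blood libraries held 0 counts of COX4I2. The mean log2 ratio did not differ between heart and liver beyond the spread of the livers (difference −0.58, adjusted p = 0.707, exact permutation test), whereas heart exceeded gonads by 1.89 (adjusted p = 0.00123, exact permutation test). Of the 18 comparisons of a ratio between 2 tissues, 16 passed an adjusted p under 0.05, and 14 when differences were taken within a fetus or its dam. The comparisons that no longer passed were those of COX6A2 between gonads and liver (adjusted p = 0.0563) and between liver and blood (adjusted p = 0.0791, exact sign permutation test).

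**Figure D2:**
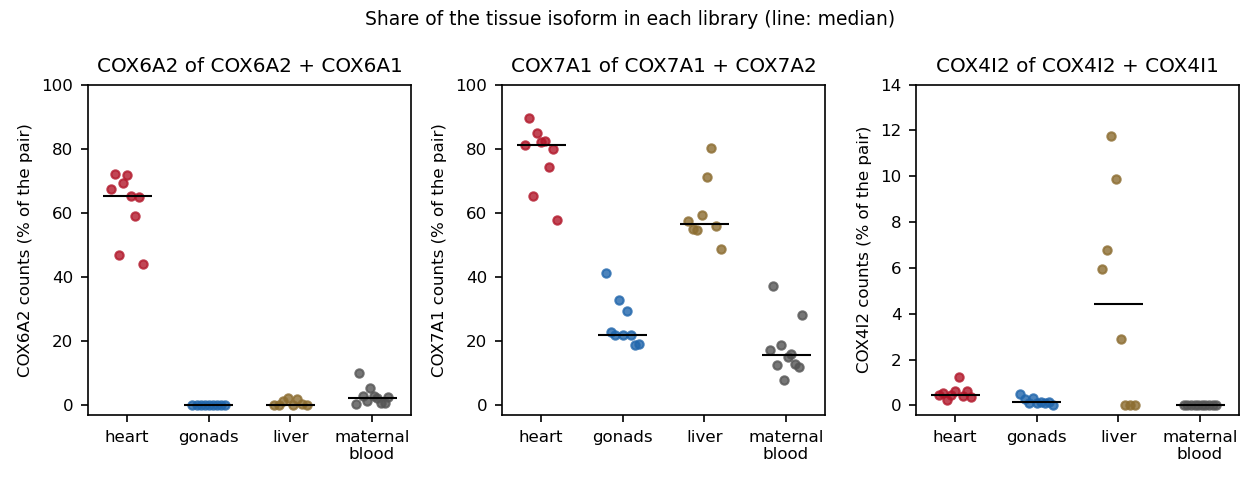
Share of the tissue isoform in the counts of each isoform pair, in percent, for every library of heart, gonads, liver and maternal blood, with the median as a line. COX6A2 separates the heart (44.0% to 72.1%) from the other tissues, COX7A1 is high in heart and liver, and the livers fall into 5 with COX4I2 and 3 almost without.

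The second comparison was with fetal weight within each tissue. Levels are now scaled over the libraries of a tissue alone, and a slope is the log2 change per 0.1 g. In the heart the subunits mostly had positive slopes, 32 of 46 tested, with a median of 0.074 where the median of all genes was −0.014. A positive slope passed in 17 of 46 members, where 5.22% of 16250 genes did, and a negative slope in 0 of 46, where 1.54% did (edgeR). At an unadjusted p under 0.05 there were 21 positive and 3 negative slopes, beside 29.1% of all genes in either direction. DESeq2 called 1 negative slope, and its share over all genes was not counted. The 17 were 1 member of complex II, 5 of complex III, 6 of complex IV and 5 of complex V, with slopes from 0.13 to 0.66. All had adjusted p-values between 0.0395 and 0.0497, close to the threshold.

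COX7A2L (Entrez 540225), which joins complexes III and IV into supercomplexes, lay at 27.3 to 58.2 CPM in the 5 ET_D7 hearts and at 76.9 to 192 CPM in the 4 ET_D9 hearts, without overlap. Its slope was 0.51 (SE 0.077, adjusted p = 0.0395, edgeR). UQCRFS1 lay at 62.4 to 120 CPM in the ET_D7 and 147 to 289 CPM in the ET_D9 hearts, again without overlap, with a slope of 0.40 (SE 0.064, adjusted p = 0.0395, edgeR). COX5A (Entrez 444878), a nuclear subunit of complex IV that faces the matrix, lay at 33.4 to 98.8 CPM in the ET_D7 and 90.0 to 279 CPM in the ET_D9 hearts. The heart of fetus 3 was the only ET_D7 heart above the lowest ET_D9 heart, and the slope was 0.51 (SE 0.087, adjusted p = 0.0395, edgeR). COX7B, a small subunit needed for assembly of complex IV, lay at 72.5 to 112 CPM in the ET_D7 and 121 to 196 CPM in the ET_D9 hearts, with a slope of 0.26 (SE 0.046, adjusted p = 0.0395, edgeR). The steepest slope was that of ATP5F1C, the gamma subunit of the ATP synthase, at 0.66 (SE 0.125), from 3.01 to 12.9 CPM in ET_D7 and 12.6 to 51.0 CPM in ET_D9 hearts. Among these 5 genes the highest value was in fetus 10 each time.

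Other subunits of the same complexes had negative slopes in the same hearts. COX7C ran from 985 CPM in fetus 2 to 323 CPM in fetus 10, with a slope of −0.21 (SE 0.087, adjusted p = 0.133, edgeR). UQCRB, a subunit that binds near cytochrome b, ran from 648 to 238 CPM in the same fetuses, with a slope of −0.21 (SE 0.074, adjusted p = 0.0961, edgeR). Neither passed the test. Within complex III the slopes ranged from −0.21 to 0.48 and within complex V from −0.12 to 0.66.

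The share of counts from the mitochondrial genome moved with weight in the heart. It was 45.1% in fetus 1, 57.3% in fetus 2, 23.5% in fetus 3, 41.5% in fetus 4, 40.8% in fetus 5, 39.0% in fetus 6, 25.5% in fetus 8, 28.5% in fetus 9 and 17.1% in fetus 10. The heart of fetus 3, a light fetus with a low share, had 98.8 CPM of COX5A, above the other ET_D7 hearts, and 327 CPM of COX7C, below them. Fitted on that share in place of weight, 10 members had a positive slope, where 18.4% of all genes did, and 20 a negative slope, where 20.3% did. The 20 held 16 of the 17 members called with weight. Weight and the share had r = −0.76 over these hearts, so the 2 sets of calls are not independent. The matching overlap over all genes was not counted. COX7C had the slope 0.40 per 10 percentage points (SE 0.051, adjusted p = 0.000373, edgeR) and COX5A −0.71 (SE 0.082, adjusted p = 0.00027, edgeR). With both the share and weight in the fit, 41 of 46 weight slopes were positive with a median of 0.11, all 17 members kept a positive slope, and 0 passed the test. CYTB and COX1, encoded by mitochondrial DNA, fell with weight by 0.49 and 0.44 per 0.1 g (adjusted p = 0.0491 and 0.0470, edgeR).

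The 17 calls also rested on single fetuses and on the scaling. Leaving out fetus 1, 2, 4, 5, 8 or 10 left 0 members called, while 20 positive and 5 negative slopes passed without fetus 3, 13 positive without fetus 6 and 16 without fetus 9. The same held for the whole table, with 0 genes called in either direction without fetus 1, 2, 4, 5, 8 or 10, and 3947, 758 and 1661 without fetus 3, 6 and 9. For the members the median slope stayed between 0.066 and 0.097 throughout. Scaling by the total count raised the members' slopes by a median of 0.14, made 43 of 46 positive and left 0 called. The total includes the mitochondrial genome, whose share fell with weight (r = −0.76). The shift over all genes is not given here, so the 43 are not a result about the members. With the transfer group as a covariate 27 of 46 slopes were positive and 0 passed. A spline of weight was called for 0 of 46 members and 0% of all genes with edgeR. At an unadjusted p under 0.05 there were 16 members, beside 7.99% of all genes. DESeq2 called 13 members, and its share over all genes was not counted.

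**Figure D3:**
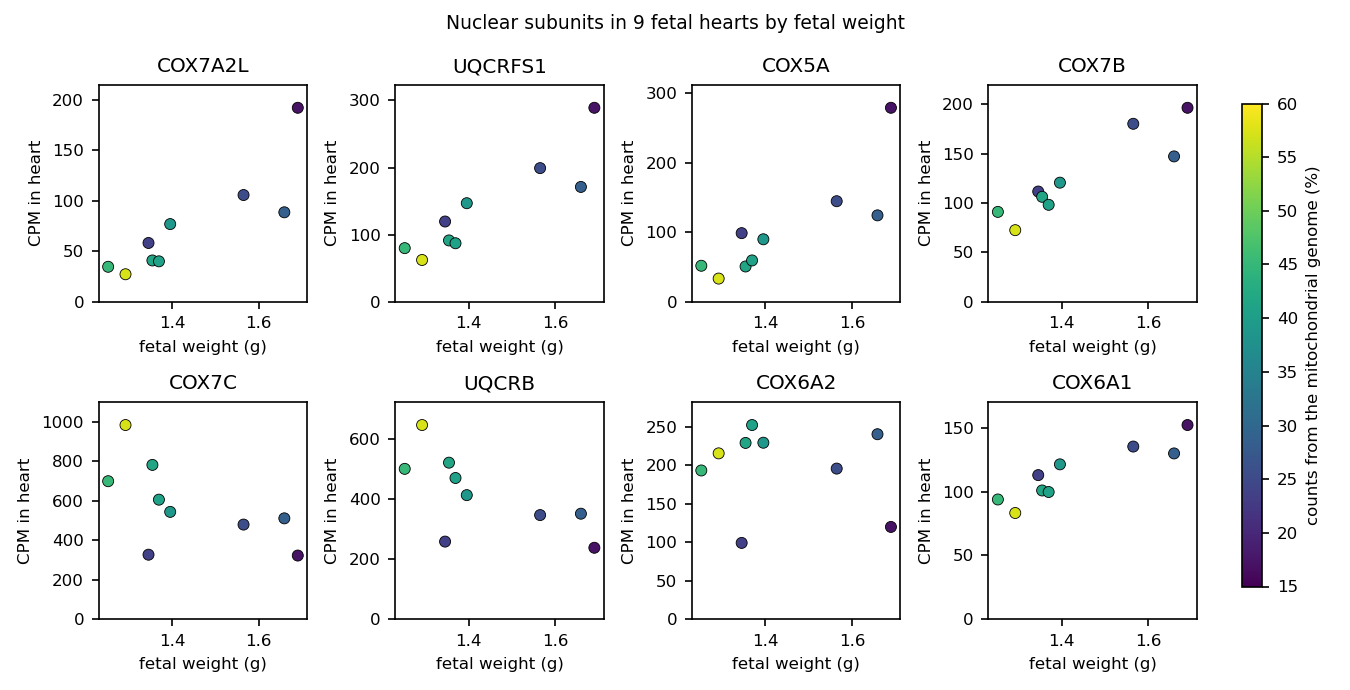
CPM of 8 subunits in the 9 hearts against fetal weight in g, each panel starting at 0, with points coloured by the percent of the library's counts from the mitochondrial genome. The top row holds the 4 members with the smallest p-values, highest in fetus 10, and the bottom row COX7C and UQCRB, which run the other way, and the isoforms COX6A2 and COX6A1.

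In the liver the slopes lay around 0, with a median of 0.0055 over 45 members tested and −0.010 over all genes. A positive slope passed in 1 member, where 0.44% of 16605 genes did, and a negative slope in 1, where 1.79% did. COX4I2 (Entrez 618339) lay at 6.11 to 27.1 CPM in the 5 ET_D7 livers and at 0, 0.029 and 0.049 CPM in the 3 ET_D9 livers. In counts, the former held 232 to 448 and the latter 0 or 1. The slope of COX4I2 was −2.66 (SE 0.469, adjusted p = 0.0282, edgeR), and it was 0.27 with the transfer group in the model. Weight and group cannot be told apart in these 8 livers. SDHC lay at 7.93 to 11.6 CPM in the ET_D7 livers and 12.2 to 30.2 CPM in the ET_D9 livers, with a slope of 0.33 (SE 0.070, adjusted p = 0.0460, edgeR). Neither slope passed when the like libraries of fetuses 1 and 2 were both left out. The positive slope of the liver gave 0 calls without fetus 1, 2, 5, 8, 9 or 10 and 2 without fetus 4, and the negative slope 0 calls without fetus 8, 9 or 10.

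A spline was called in the liver for COX4I2 and COX5A, 2 of 45 members, where 1.81% of all genes were, and in 0 members without the like libraries. COX5A lay at 12.6 to 19.7 CPM in ET_D7 and 0.951 to 5.85 CPM in ET_D9 livers, without overlap, and within the ET_D9 livers it was lowest in fetus 8. Its linear slope of −0.58 did not pass (SE 0.171, adjusted p = 0.117, edgeR) and was 0.52 with the transfer group in the model. ATP5MC1 reached 25.6 CPM in ET_D7 livers and 15.5 CPM in ET_D9 livers, and the groups overlapped (slope −0.19, adjusted p = 0.199, edgeR). The liver of fetus 10 had a large part in the liver slopes. It had the highest share of the 48 genes, 0.878%, and without it the median slope was −0.084 and 6 of 45 slopes were positive.

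**Figure D4:**
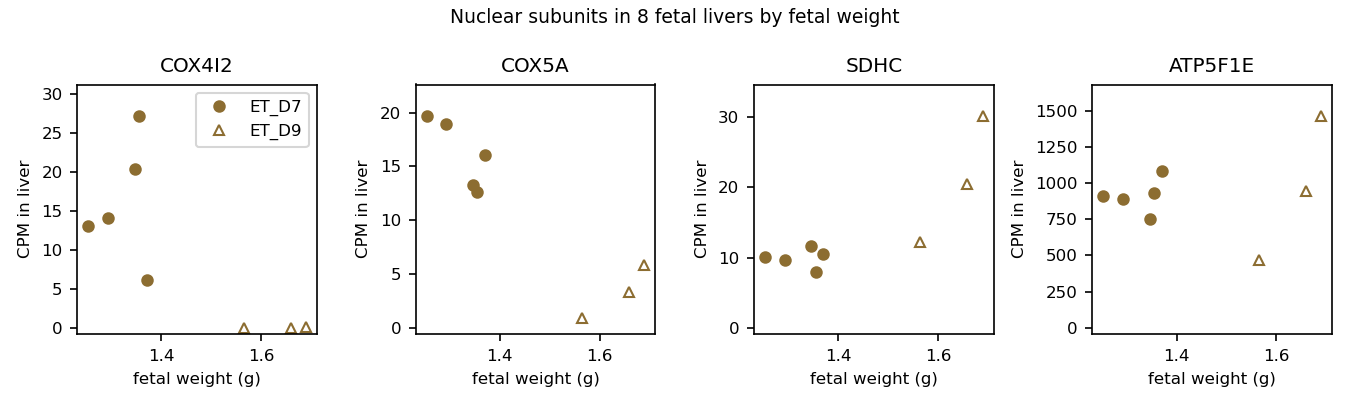
CPM of 4 subunits in the 8 livers against fetal weight in g, each axis including 0, with filled circles for ET_D7 and open triangles for ET_D9. COX4I2 and COX5A are lower in all 3 ET_D9 livers than in all 5 ET_D7 livers, SDHC is higher, and ATP5F1E, the subunit most above the heart, overlaps between the groups.

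In the gonads 36 of 45 slopes were positive, with a median of 0.059 beside −0.0030 over all genes, and none passed with edgeR (0 positive and 0 negative, with 0% and 0% of 17809 genes, and 0 with DESeq2). At an unadjusted p under 0.05 there were 2 positive and 1 negative, beside 5.62% of all genes in either direction. COX7A2 lay at 11.4 to 25.8 CPM in the 4 ET_D7 and 29.6 to 37.4 CPM in the 5 ET_D9 gonads, with a slope of 0.27 (SE 0.083, adjusted p = 0.849, edgeR). COX7B2 ran the other way, at 1.03 to 2.40 CPM and 0.695 to 1.02 CPM, with a slope of −0.33 (adjusted p = 0.849, edgeR). The spline gave 0 calls with edgeR, as for 0% of all genes. At an unadjusted p under 0.05 there were 7 members, beside 12.6% of all genes. DESeq2 gave 5 calls, and edgeR 10 when the like libraries of fetuses 6 and 8 were left out. For these 2 fits the share over all genes was not counted.

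In maternal blood 38 of 45 slopes on the weight of the fetus were positive, with a median of 0.034 beside 0.0018 over all genes. Again none passed, with 0 positive and 0 negative calls, beside 0% and 0% of 16284 genes and 0 calls with DESeq2. At an unadjusted p under 0.05 there were 6 positive and 0 negative, beside 9.69% of all genes in either direction. ATP5ME, a membrane subunit of the ATP synthase, had the smallest p, at 7.84 to 10.2 CPM in the 5 ET_D7 dams and 9.75 to 13.4 CPM in the 5 ET_D9 dams (slope 0.15, SE 0.039, adjusted p = 0.372, edgeR). The spline was called for 0 members, beside 0.129% of all genes, and for 0 with DESeq2. At an unadjusted p under 0.05 there were 4, beside 9.77% of all genes.

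**Figure D5:**
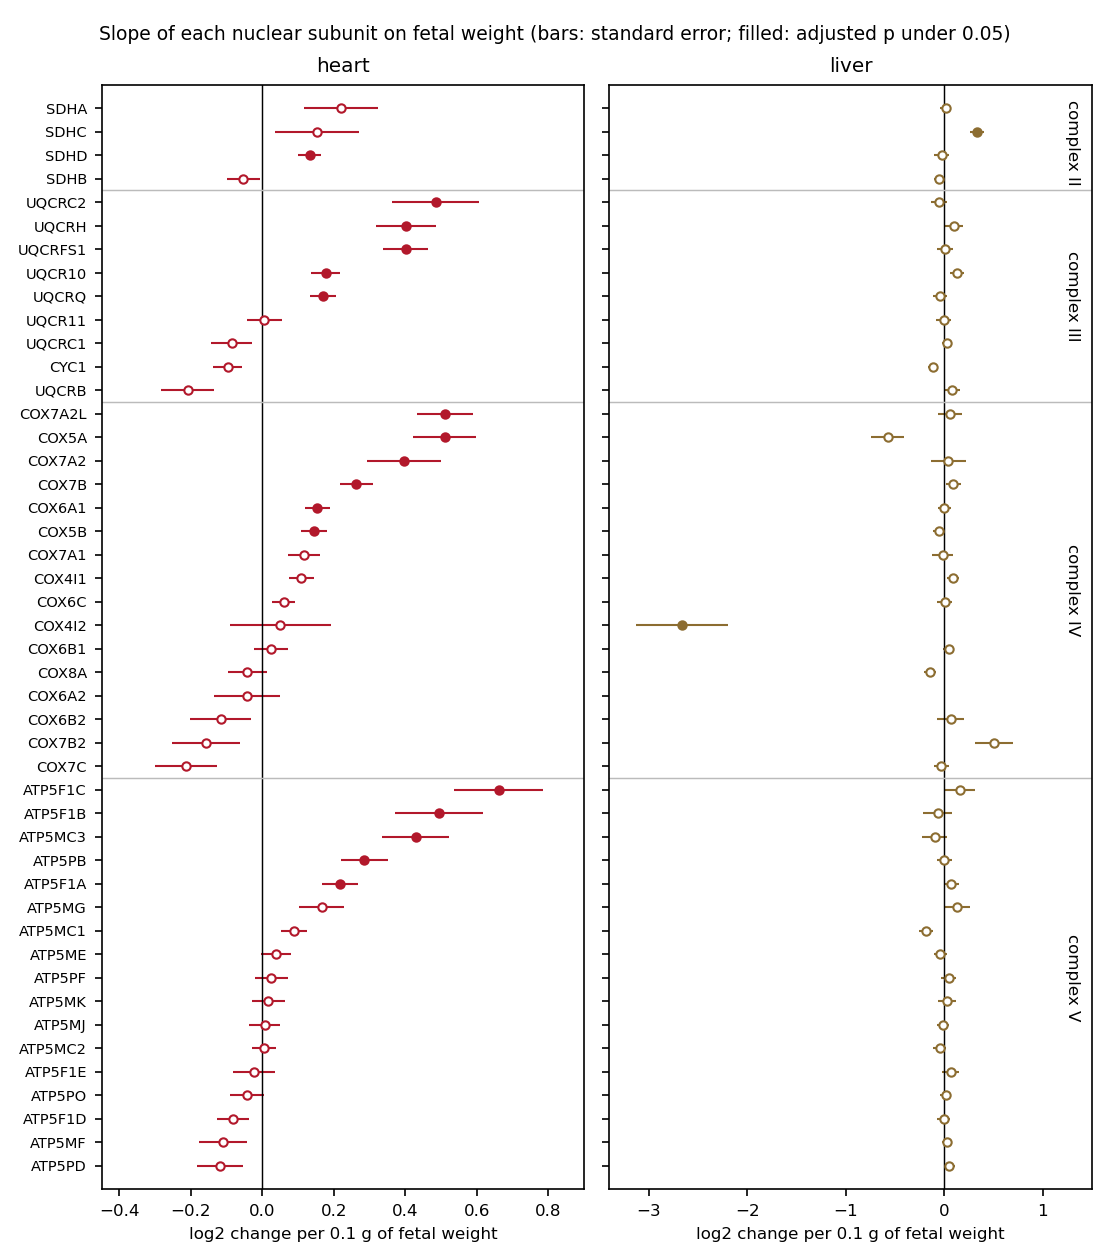
Slope of each subunit on fetal weight in heart (left) and liver (right), as log2 change per 0.1 g with standard error bars and filled points for an adjusted p under 0.05, grouped by complex and ordered by the heart slope. The heart slopes run from −0.21 to 0.66 with 17 filled points, all above 0, and most liver slopes lie near 0 apart from COX4I2 and COX5A.

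The slopes of the organs were compared with each other in a single model of the 26 organ libraries. Heart and liver slopes differed for 8 of 46 members, where 8.15% of 19635 genes did. COX5A had the smallest p, with a slope higher in the heart by 1.08 (SE 0.161, adjusted p = 0.000124, edgeR). COX4I2, UQCRC2, ATP5MC3, COX7A2L, UQCRFS1 and ATP5MC1 were also higher in the heart, by 2.73 to 0.25, and COX7B2 was lower by −0.70. Without the like libraries 5 differences passed, and with any fetus left out 3 to 11 (3 without fetus 8, 4 without fetus 1 or 9, 5 without fetus 2 or 10). Gonads and liver differed for 3 members (COX4I2, COX5A and COX7B2), where 5.14% of all genes did, and for 1 without fetus 1 or 9. Heart and gonads differed for 0 members, where 0.0357% of all genes did. At an unadjusted p under 0.05 there were 11 members, and the share over all genes was not counted. With the fetus as a block the counts were again 8, 3 and 0.

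Along weight, the isoform ratios gave no relation past an adjusted p under 0.05 among 8 computed in tissues with enough counts of both forms. In the heart, log2 COX6A2/COX6A1 had r = −0.51 (exact permutation p = 0.147, adjusted 0.293, n = 9) and rho = −0.58 (exact permutation p = 0.108). It was r = −0.31 without fetuses 9 and 10, farthest from the median weight, and r = −0.39 with the means of the transfer groups removed. For COX7A1/COX7A2, the heart had r = −0.57 (exact permutation p = 0.106, adjusted 0.284, n = 9) and rho = −0.50 (exact permutation p = 0.178). The gonads had r = −0.67 (exact permutation p = 0.0446, adjusted 0.178, n = 9) and rho = −0.70 (exact permutation p = 0.0433), with r = −0.46 without the same 2 fetuses and −0.49 within transfer groups. Without fetus 3, r in the heart was −0.78 for COX6A2/COX6A1 and −0.77 for COX7A1/COX7A2, and both then passed (exact permutation p = 0.0118 and 0.0134). Without fetus 10 they were −0.21 and −0.30 (exact permutation p = 0.628 and 0.469). For COX7A1/COX7A2 in the heart, r was −0.40 without fetuses 9 and 10. In the liver, COX7A1/COX7A2 had r = 0.025 over 8 fetuses and r = 0.89 without fetuses 9 and 10, so that its value depended on them. For COX4I2/COX4I1 in the liver no r is given, since the 5 livers of fetuses 1 to 5 and the 3 of fetuses 8 to 10 form separate clusters.

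Of the other genes of the pathway, 2 of 42 assembly factors tested had a positive slope in the heart, near the 5.22% of all genes. A negative slope passed in 2, where 1.54% of all genes did. UQCC3, at 0.48, had the smallest p (adjusted p = 0.0395, edgeR). Among the regulators 1 of 15 had a positive slope that passed, again near the 5.22% of all genes. It was GABPB1, a subunit of nuclear respiratory factor 2 (0.17, adjusted p = 0.0497, edgeR). Of 17 neighbours 4 had a positive slope, led by CYCS, cytochrome c, at 0.30 (adjusted p = 0.0395, edgeR). In gonads, liver and blood 0 genes of these 3 lists passed. The median slope in the heart was −0.012 for the assembly factors, 0.052 for the regulators and 0.037 for the neighbours, beside 0.074 for the 46 subunits.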

How the data were processed

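RNA-seq libraries of fetal heart, gonads and liver and of maternal blood were analysed from 1 table of gene counts. The authors trimmed the reads with Trimmomatic, checked them with FastQC 0.11.9, aligned them with STAR 2.7.0b and made the deposited counts per gene with featureCounts (Subread 2.0.3). The counts are whole reads with no normalization, and how reads on shared or overlapping genes and strands were counted is not given in the sources used here, so near-identical copies of a subunit gene are uncertain. Symbols came from RefSeq, for 31630 of 35092 genes, and all columns had a sample.

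The organ comparison kept every gene with at least 1 count in the organ libraries. The weight fits kept a gene if 4 or more of their libraries held 10 or more counts of it. Counts were scaled with TMM and tested with the quasi-likelihood test of edgeR 4.0.16 (R 4.3.3), with p-values adjusted by Benjamini-Hochberg over all genes tested. The organs were compared in 1 model. Weight was fitted within each tissue as a linear term and as a natural spline with 3 degrees of freedom, and slopes were compared between organs in an interaction model. CPM are on the TMM scale of the 26 organ libraries or, for weight, of 1 tissue. Isoform ratios, with 0.5 added to each count, were compared with two-sided exact permutation tests, or 100000 permutations for 10 dams, in scipy 1.17.1. DESeq2 1.42.0 and an additive model in mgcv 1.9.3 were alternatives, and the scripts were tested on simulated data, where the additive model made false calls. Its p-values outside 0 to 1, a numerical failure (15 to 25 genes per tissue, 1 member, COX6A1 in the heart), were dropped. Other alternatives were other scalings, filters and covariates, each fetus left out, and like libraries counted once or left out. Those on like libraries, on the mitochondrial share and on the total without mitochondrial genes were chosen after seeing the data.

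Organs with the same number come from the same fetus, and the fetus was therefore also fitted as a block. Deviations from the organ means correlated little within a fetus (median r 0.022 for heart and liver, 0.049 for heart and gonads, 0.0098 for gonads and liver). Like libraries were found by a chi-square comparison of counts, whose median was 0.000257 for gonads 6 and 8 and 0.122 for livers 1 and 2, where sampling noise gives 0.455 and the other 143 pairs of a tissue gave 1.70 to 75.0.

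The members, lists and tests were chosen with earlier results of these data known. The members whose values are given in full are the isoform pairs, the members of each complex with the largest and smallest log2 fold change heart against liver, and up to 4 per tissue with the smallest p on weight. SDHB, SDHA, UQCRC1, UQCRC2, COX6B2, COX7B2, COX7C, UQCRB, ATP5F1C, ATP5MC1, ATP5MC3 and ATP5MF were named beside them after their values were seen. Listed genes were named by the largest log2 fold change or smallest p. P-values measure the spread between these samples only. No sequences or transcript lengths were used, so levels were not compared between genes.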

Additional observations from a re-analysis of the deposited data

Results flagged for a closer look

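Of 48 groups of libraries examined for a single library far from the rest, 4 had one, where chance gives about 1 in 20. In the heart of fetus 10, COX7A2L was at 192 CPM with the next heart at 106, and COX5A at 279 CPM with the next at 145. In the gonads of fetus 7, the mitochondrial genome took 7.23% of the counts with the next library at 4.65%, and complex II took 0.0389% of the counts outside it with the next at 0.0338%.

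The weight slope differed between organs for 8 members in heart against liver (interaction term, edgeR, adjusted over all genes). As heart minus liver per 0.1 g, the differences were 1.08 for COX5A (adjusted p = 0.000124), 2.73 for COX4I2 (0.000245), 0.38 for UQCRFS1 (0.0179), 0.52 for UQCRC2 (0.0194), −0.70 for COX7B2 (0.0236), 0.51 for ATP5MC3 (0.0245), 0.25 for ATP5MC1 (0.0281) and 0.43 for COX7A2L (0.0456). As gonads minus liver they were 2.27 for COX4I2 (0.00431), −0.87 for COX7B2 (0.00523) and 0.65 for COX5A (0.0206).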

How the results depend on the processing

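The organ counts kept within 1.5 times their value under all alternatives but the scaling. With the total count, heart against gonads gave 29 and 2 members and gonads against liver 21 and 11. With the total outside the mitochondrial genome, 1 member was higher in gonads than heart and 16 higher in gonads than liver. With the fetus as a replicate block the counts were 39 and 2 for heart against liver, 43 and 0 for heart against gonads, 10 and 28 for gonads against liver, 8, 3 and 0 for the slope differences and 14 for the isoform ratios. Leaving out each fetus gave 38 to 40 and 3, 42 to 44 and 0, and 8 to 10 and 27 to 30.

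The weight results depended on more choices, and the cause was not tested. In the heart, the 17 positive slopes became 0 with the total count, the transfer group or the mitochondrial share as covariate, and 0 to 20 with a fetus left out. Negative slopes were 1 with DESeq2 and 0 to 5 with a fetus left out. In the liver, both slopes became 0 with genes of at least 1 count, with the transfer group and without the like libraries, the positive one also with the mitochondrial share (0), and the spline gave 0 with the transfer group and without the like libraries. With a fetus left out the liver gave 0 to 2 positive, 0 to 1 negative and 1 to 6 spline calls, and DESeq2 gave 2 negative slopes. The slopes of COX4I2, COX5A and ATP5MC1 in the liver turned to 0.27, 0.52 and 0.098 with the transfer group. The spline was called with DESeq2 for 13 heart, 5 gonad and 15 liver members. The additive model called 21, 11, 21 and 4 (blood), where it called 26.2%, 14.5%, 29.8% and 10.8% of all genes. In the gonads edgeR called the spline for 10 members without the like libraries and 0 to 4 with a fetus left out. Shares over all genes were counted neither for DESeq2 nor for these gonad fits. Slope differences between heart and liver were 5 without the like libraries and 3 to 11 with a fetus left out, those between gonads and liver 1 to 3, and isoform relations with weight 0 to 3. Depth was not limiting for most members, but COX4I2, COX6A2 outside the heart and COX8C rest on few counts.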

Other observations

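Of the 17 members called with weight, 11 had a log2 fold change gonads against liver above 0 (median 0.39), with 7 called higher in gonads and 3 higher in liver (edgeR). Of the other 29 members 3 had one above 0 (median −1.14), with 2 called higher in gonads and 25 in liver. Of all genes tested, 30.8% were called higher in gonads and 33.6% in liver. These values are with TMM only, and the split between gonads and liver depended on the scaling. Across the 46 members the heart slope and the log2 fold change gonads against liver had r = 0.64 and rho = 0.69, beside r = 0.16 and rho = 0.22 across 16250 genes. These are descriptions across genes that share libraries and scaling, and genes are not independent replicates.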
